A study of Homo sapiens with 6 samples.

Results

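The spindle assembly checkpoint is the surveillance system that holds a mitotic cell in metaphase until every chromosome is attached to spindle microtubules. At an unattached kinetochore, the kinase TTK (MPS1) starts the signal, BUB1 and BUB3 form the platform on which MAD1L1 (MAD1) loads MAD2L1 (MAD2), and MAD2L1 joins BUB1B (BUBR1), BUB3 and CDC20 in the mitotic checkpoint complex, which blocks the anaphase-promoting complex. TRIP13, an AAA ATPase, and its adaptor MAD2L1BP (p31comet) take MAD2L1 out of that complex and reset it. Transcripts of several checkpoint genes are known to peak in G2 and mitosis, so their level in a culture also follows how many cells are in those phases.

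These 8 genes, BUB1, BUB1B, BUB3, MAD1L1, MAD2L1, TTK, TRIP13 and MAD2L1BP, were taken by symbol from a table of 23228 gene names, and all 8 were found. The table comes from SaOS-2, an osteosarcoma line that lacks RB, engineered with a Tet-inducible p21 vector. The p21 OFF group was 3 libraries of untreated cells and the p21 ON group 3 libraries of cells given 1 μg/ml doxycycline for 24 h; both groups carried the vector. The comparison asks how checkpoint transcripts respond to p21, an inhibitor of cyclin-dependent kinases, in cells without RB. No library of doxycycline-treated cells without the vector was analysed here, so p21 and the drug cannot be told apart, and whether the line is 1 clone is not given in the sources used here. The methods speak of biological replicates, but neither they nor the labels say that these were separate cultures, so p-values measure the spread between these libraries, which may be technical.

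Totals ran from 12795490 to 21975045 reads on genes. CDKN1A, the p21 gene, had 1187 to 1355 normalized counts in the p21 OFF libraries and 40470.4 to 46739 in the p21 ON libraries, which matched the labels. RUNX2, SP7, ALPL and COL1A1, genes of the osteoblast lineage, were at 3028 normalized counts or more in every library, IBSP was lower in p21 ON (95.5 to 102 against 123 to 139, limma adjusted p = 0.0264), SPP1 was at 2.96 or less, and RB1 transcripts were counted at 497 to 697. Of the markers of other cell types, PTPRC, PECAM1, CD3E, MLANA and DES were at 16.3 or less. EPCAM was at 301 to 374 in p21 OFF and at 292 to 325 in p21 ON. p21 OFF replicate 1 stood further from the other p21 OFF libraries (chi-square per gene 8.49 and 9.26) than any other replicates stood from each other (2.71 to 3.98), so results that change without it are given both ways.

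The start regions of the checkpoint genes are shown first because BUB1, BUB1B, MAD2L1 and TRIP13, which are among the 5 genes with large falls, hold CHR letters near their start, while the fifth, TTK, was not examined. The CHR (cell cycle genes homology region) is a short element of G2/M promoters that the MuvB complex, the core of DREAM and of B-MYB-MuvB, is known to contact. RefSeq windows of 300 bases, from 250 before to 50 after an annotated start, were matched by symbol for 6 of the 8 genes; TTK and BUB3 were not matched. The stretches below run 5′ to 3′ on the gene's strand from 100 bases before the start to the 30th transcribed base (build GRCh38.p14), with CHR letters (TTTGAA or TTCGAA, either strand) in capitals. For BUB1 (chr2:110678034-110678163, minus strand), BUB1B (chr15:40160969-40161098, plus strand), MAD2L1 (chr4:120066819-120066948, minus strand), TRIP13 (chr5:892784-892913, plus strand) and MAD1L1 (chr7:2232916-2233045, minus strand) they read as follows.
BUB1: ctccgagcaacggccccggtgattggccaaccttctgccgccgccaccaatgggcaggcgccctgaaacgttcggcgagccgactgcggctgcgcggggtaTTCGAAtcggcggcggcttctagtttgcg
BUB1B: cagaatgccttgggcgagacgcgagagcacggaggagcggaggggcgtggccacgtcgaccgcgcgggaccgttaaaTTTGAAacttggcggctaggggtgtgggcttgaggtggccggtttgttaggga
MAD2L1: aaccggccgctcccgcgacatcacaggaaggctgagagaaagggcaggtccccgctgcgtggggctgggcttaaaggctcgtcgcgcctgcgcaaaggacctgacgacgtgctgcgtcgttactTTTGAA
TRIP13: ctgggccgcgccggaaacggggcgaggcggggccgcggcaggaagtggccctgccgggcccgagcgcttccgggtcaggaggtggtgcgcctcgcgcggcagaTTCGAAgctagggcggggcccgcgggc
MAD1L1: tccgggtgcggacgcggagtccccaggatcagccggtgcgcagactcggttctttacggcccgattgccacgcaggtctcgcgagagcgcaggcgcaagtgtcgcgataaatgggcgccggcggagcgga

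CHR letters lay within 30 bases of the start in 4 of the 6 matched genes. In BUB1 they spanned transcribed bases 2 to 7, in TRIP13 bases 4 to 9 and in MAD2L1 bases 25 to 30, while in BUB1B they lay upstream, from base -23 to -18. MAD1L1 had none in its whole window. MAD2L1BP has 2 annotated starts, with none in the window of the first and a match from base -117 to -112 before the second. Among all 35116 RefSeq windows, 4.52% held CHR letters between 60 bases before and 30 after the start, a range set after the sequences were seen, and 16.4% held them anywhere. No E2F letters (TTTCCCGC, TTTCGCGC, TTTGCCGC or TTTGGCGC, either strand) occurred in the windows of the 6 genes, where 3.31% of all windows held them, and this says only that these letters are not there. CCAAT, the NF-Y box, occurred in BUB1, at 2 places, and in MAD2L1, against 34.6% of all windows. Of 413 other tested genes with CHR letters near the start, 132 (32.0%) were lower in p21 ON cells by the test described below, and of 8848 without them 1119 (12.6%) were. The median log2 fold changes of these sets were -0.08 and 0.0041, small beside the falls of the checkpoint genes. Tested genes whose symbol matched no window were left out of both sets. A match of letters is a description and not a binding site, and whether these letters bear on the falls was not tested.

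**Figure D1:**
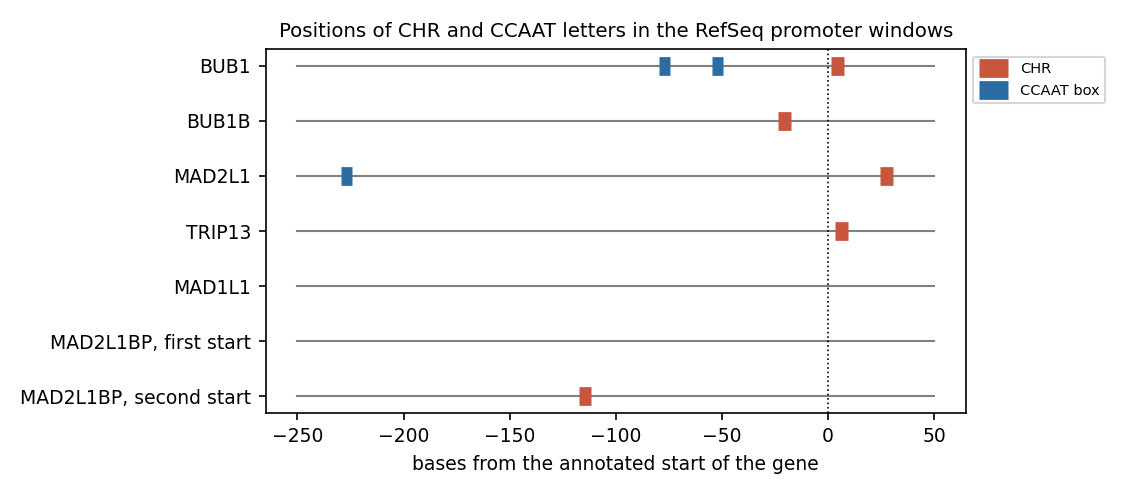
Positions of CHR letters (red) and CCAAT letters (blue) in the RefSeq window of each matched gene, in bases from the annotated start (dotted line); each grey line is a window from 250 bases before to 50 after a start. CHR letters sit within 30 bases of the start in BUB1, BUB1B, MAD2L1 and TRIP13, while MAD1L1 has none and MAD2L1BP has a match only from base -117 to -112 before its second start.

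After p21 induction, 7 of the 8 checkpoint genes were lower and none was higher. TTK, BUB1, BUB1B, MAD2L1 and TRIP13 dropped to between 34.3% and 41.5% of their p21 OFF level. BUB3 and MAD2L1BP fell by less, to 84.3% and 81.6%, and MAD1L1 did not pass the test. In bulk RNA, fewer cells in G2 and mitosis and less RNA per cell cannot be told apart. The test, limma on the log2 of normalized counts + 1, ran over 13255 genes that had a mean of at least 10 normalized counts, all 8 members among them. It used a Benjamini-Hochberg adjusted p under 0.05, and fold changes are on that scale. Of all genes tested 12.7% were lower and 10.5% higher by this rule. The higher ones made up 45.3% of all calls, and 63.0% under scaling by library size alone, where the 5 large falls kept their calls. A fall of at least 1 on the log2 scale was seen in 5 of the 8, against 1.15% of all genes, and no p21 ON library reached any p21 OFF library for 7 of the 8, against 21.3% of all genes. The median log2 fold change of the 8 was -1.29 and that of all genes 0.0056. The 8 genes were chosen with earlier results of these data known, so these comparisons with all genes are a description. At an unadjusted p under 0.05, limma gave 8 of the 8 lower and 0 higher, against 19.1% and 17.8% of all genes. At an adjusted p under 0.05, edgeR and DESeq2 called 0 of the 8 higher.

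**Figure D2:**
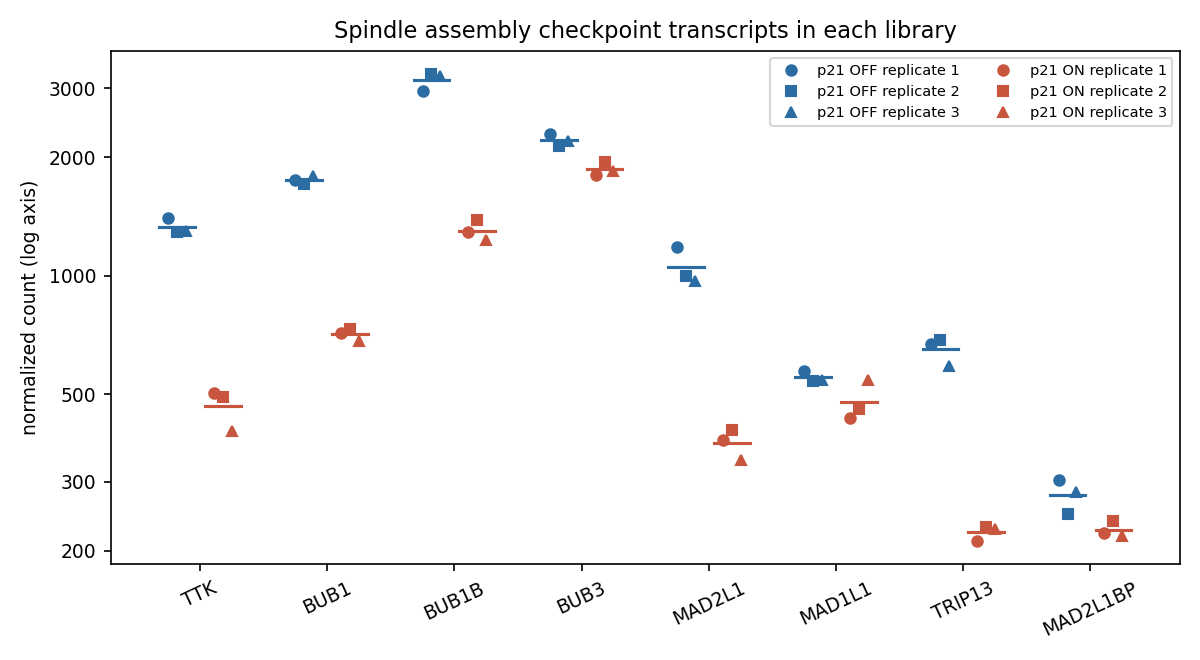
Normalized counts (log axis) of the 8 checkpoint transcripts in each library; blue points are p21 OFF, red points p21 ON, symbols mark the replicate number and short lines the group means. For TTK, BUB1, BUB1B, MAD2L1 and TRIP13 the groups are far apart, for BUB3 and MAD2L1BP they are close without overlap, and for MAD1L1 p21 ON replicate 3, at 544, lies among the p21 OFF libraries.

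Both checkpoint kinases fell. TTK, the kinase that starts checkpoint signalling by phosphorylating the kinetochore scaffold KNL1, lies on chromosome 6 of GRCh37 from 80713604 to 80752244. It had 1402, 1295 and 1301 normalized counts in p21 OFF replicates 1 to 3 and 504, 493 and 403 in p21 ON replicates 1 to 3. Every p21 ON library was under every p21 OFF library, and the lowest p21 OFF library held 2.57 times the highest p21 ON library. TTK changed by -1.52 on the log2 scale (SE 0.08, limma adjusted p = 1.92e-10), the 16th largest fall of the 13255 genes. BUB1, which is known to phosphorylate histone H2A at centromeres and to bring BUB1B and MAD1L1 to kinetochores, lies on chromosome 2 from 111395105 to 111435640. Its p21 OFF libraries held 1751, 1715 and 1796 normalized counts and its p21 ON libraries 716, 731 and 682. The replicates of BUB1 were close together, with a coefficient of variation of 2.33% in p21 OFF, where read counting alone gives 2.30%, and the groups were 2.35-fold apart at their nearest libraries. BUB1 changed by -1.30 on the log2 scale (SE 0.06, limma adjusted p = 5.57e-11), the 69th largest fall.

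Of the 3 checkpoint complex subunits, MAD2L1 and BUB1B fell strongly and BUB3 slightly. MAD2L1, whose closed form binds CDC20, lies on chromosome 4 from 120976778 to 120988013. It had 1181, 1001 and 971 normalized counts with p21 OFF and 382, 406 and 341 with p21 ON. The groups did not overlap, and p21 OFF replicate 1 was the highest library. MAD2L1 fell by 1.48 on the log2 scale (SE 0.09, limma adjusted p = 4.42e-10) and its log2 fold change was -1.39 without p21 OFF replicate 1. BUB1B, the BUB1 relative that binds and blocks CDC20, lies on chromosome 15 from 40453224 to 40513324. It had 2949, 3255 and 3221 normalized counts with p21 OFF, the highest of the 8 genes there, and 1293, 1385 and 1232 with p21 ON. All p21 ON libraries of BUB1B were lower, and the fall came to -1.27 on the log2 scale (SE 0.07, limma adjusted p = 9.31e-11). The readthrough gene BUB1B-PAK6 shares 5.91% of the BUB1B transcript, and reads there could have been split or dropped in counting.

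BUB3, the WD40 protein that carries BUB1 and BUB1B to KNL1, lies on chromosome 10 from 124913918 to 124929983. It had 2288, 2143 and 2204 normalized counts with p21 OFF and 1804, 1948 and 1843 with p21 ON. The groups of BUB3 did not overlap, but the lowest p21 OFF library was only 1.10 times the highest p21 ON library. Its log2 fold change was -0.25 (95% interval -0.37 to -0.12, limma adjusted p = 0.00747), and the call was lost without p21 ON replicate 1 (log2 fold change -0.22, limma adjusted p = 0.0576) and when no filter was placed on low values (adjusted p = 0.0596).

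MAD1L1, the coiled-coil protein that anchors MAD2L1 at unattached kinetochores and at nuclear pores, lies on chromosome 7 from 1855429 to 2272878. It had 574, 539 and 543 normalized counts with p21 OFF and 434, 458 and 544 with p21 ON. p21 ON replicates 1 and 2 of MAD1L1 were below every p21 OFF library, and replicate 3 was within their range. The log2 fold change of MAD1L1 was -0.21 (95% interval -0.39 to -0.03, limma adjusted p = 0.0841), where the interval is that of a single gene and is not adjusted for the number of genes tested. Without p21 ON replicate 3 MAD1L1 passed the test, at -0.31 on the log2 scale (limma adjusted p = 0.0287). In the newer annotation used here, an overlapping gene model on the same strand shares 99.7% of the MAD1L1 transcript, so its count could depend on the annotation, which was not tested.

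The pair that disassembles the checkpoint complex split. TRIP13, the ATPase, lies on chromosome 5 from 892999 to 919472. It had 672, 688 and 589.8 normalized counts with p21 OFF and 212, 230.3 and 227 with p21 ON. The p21 ON libraries of TRIP13 had a coefficient of variation of 4.41% where read counting alone gives 7.06%, and a spread from 3 libraries is imprecise. TRIP13 changed by -1.54 on the log2 scale (SE 0.09, limma adjusted p = 2.25e-10), the 13th largest fall of all genes tested. Its fall and that of TTK were closer than their standard errors. TTK had the larger one without p21 OFF replicate 2 (-1.54 against -1.49) or p21 ON replicate 1 (-1.58 against -1.50). The same held, narrowly, without p21 ON replicate 2 (-1.561 against -1.559). MAD2L1BP, the adaptor that presents MAD2L1 to TRIP13, lies on chromosome 6 from 43597277 to 43608678. Its p21 OFF libraries held 303, 248 and 282 normalized counts and its p21 ON libraries 222, 238 and 219. The groups of MAD2L1BP did not overlap, with the nearest libraries 1.04-fold apart. Its log2 fold change was -0.29 (95% interval -0.49 to -0.08, limma adjusted p = 0.0402). The call was lost when any library but p21 OFF replicate 2 was left out (adjusted p = 0.0509 to 0.125; log2 fold change -0.22 without p21 OFF replicate 1), by DESeq2 (adjusted p = 0.0921), under scaling by library size alone (adjusted p = 0.0813) and with no filter on low values (adjusted p = 0.177).

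The libraries of a group did not move all 8 genes together. p21 ON replicate 3 was the lowest p21 ON library for TTK, BUB1, BUB1B, MAD2L1 and MAD2L1BP, and the highest for MAD1L1. Among p21 OFF libraries, variation most exceeded read counting for MAD2L1, with a coefficient of variation of 10.8% against 2.95% from counting. Among p21 ON libraries it did so for MAD1L1, with a coefficient of variation of 12.0% against 4.86% from counting, and for TTK, with 11.9% against 4.88%.

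Ratios between partners were computed within each library, where scaling between libraries has no part. The pairs were chosen with earlier results of these data known. Each sets a gene with a large fall over one with a smaller change, so the ratios restate the gene values given above. With the p21 OFF mean of each ratio set to 1, BUB1 to BUB3 was 0.964, 1.01 and 1.03 with p21 OFF and 0.50, 0.473 and 0.467 with p21 ON. BUB1B to BUB3 was 0.906, 1.07 and 1.03 with p21 OFF and 0.504, 0.50 and 0.47 with p21 ON. Both kinase-family partners of BUB3 therefore stood at 0.480 ± 0.0178 and 0.491 ± 0.0187 (SD, n = 3) of their former ratio to it. MAD2L1 to MAD1L1 was 1.08, 0.976 and 0.942 with p21 OFF and 0.463, 0.466 and 0.330 with p21 ON, and p21 ON replicate 3 was the lowest. TRIP13 to MAD2L1BP was 0.939, 1.18 and 0.886 with p21 OFF and 0.403, 0.410 and 0.439 with p21 ON. The groups did not overlap for any of the 4 ratios, and the differences were -1.06, -1.02, -1.27 and -1.25 on the log2 scale in the order given. Each had p = 0.1 by the exact two-sided permutation test, the smallest that 3 libraries against 3 allow, and 0.1 after Benjamini-Hochberg adjustment over the 4 ratios, so none can pass 0.05.

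**Figure D3:**
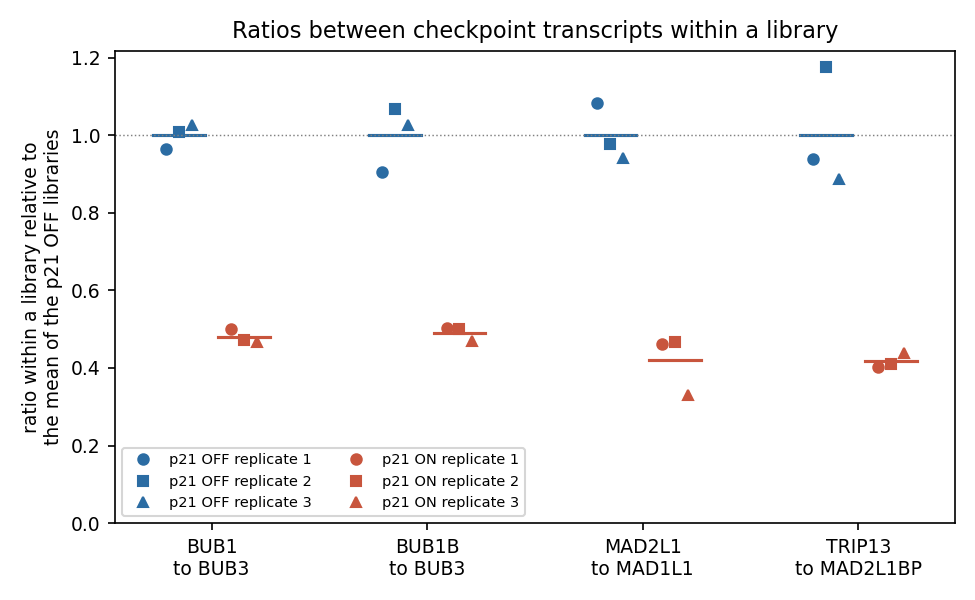
Ratio of normalized counts of a pair of checkpoint genes within each library, divided by the mean ratio of the p21 OFF libraries (dotted line at 1); blue is p21 OFF, red p21 ON, symbols mark the replicate number and short lines the group means. All p21 ON libraries lie between 0.330 and 0.504 and all p21 OFF libraries between 0.886 and 1.18.

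The order of the 8 genes by level rested on the transcript length used. Per kb of the canonical GENCODE transcript in p21 OFF cells, BUB1B had 856 ± 45.7 normalized counts per kb, BUB1 466 ± 10.9, TTK 449 ± 20.2, BUB3 287 ± 9.44 and MAD2L1 201 ± 21.7 (SD, n = 3 each), with BUB1 and TTK not apart beyond their spread. Per kb of coding sequence, an alternative chosen after seeing the data, BUB3 ranked 1st and MAD2L1 2nd in place of 4th and 8th, because both have canonical transcripts far longer than their coding part (7703 against 984 bp for BUB3 and 5227 against 615 bp for MAD2L1). Comparisons of p21 ON with p21 OFF for 1 gene do not depend on this length.

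The study used lists of genes that peak in G1/S or G2/M in an earlier meta-analysis of cell cycle datasets, and 6 of the 8 genes are in its G2/M lists. TTK, BUB1, BUB1B, MAD2L1 and BUB3 are in its high-stringency G2/M list, TRIP13 is found only under low stringency for G2/M, and MAD1L1 and MAD2L1BP are in none of the cell cycle lists. Among the 98 high-stringency G2/M genes tested by symbol, with a median log2 fold change of -1.15, TTK had the 7th largest fall, MAD2L1 the 9th, BUB1 the 31st and BUB1B the 36th. BUB3 was 91st of the 98. Of the 98 list genes, 91 were lower and 0 higher by the same test, and 54 were lower by at least 1 on the log2 scale.

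Other genes of the pathway were described from a list of 29, all found and tested, with KNL1 and SPDL1 under the older symbols CASC5 and CCDC99. The list was chosen with earlier results of these data known. Of these 22 were lower and 7 did not pass the test, while none was higher, against 12.7% lower and 10.5% higher of all genes. Their median log2 fold change was -1.09, beside 0.0056 for all genes. For 16 the log2 fold change was -1 or lower, against 1.15% of all genes. None was higher at an unadjusted p under 0.05 by limma either, against 17.8% of all genes. At an adjusted p under 0.05, edgeR and DESeq2 called 0 of them higher. At the kinetochore platform that receives TTK and BUB1, 8 of 10 were lower, and SPC25 of the NDC80 complex had the largest fall, with 486 ± 28.5 normalized counts in p21 OFF and 163 ± 19.1 in p21 ON (SD, n = 3 each; log2 fold change -1.58, limma adjusted p = 1.14e-09). Of the RZZ complex and corona, which recruit MAD1L1, 5 of 6 were lower, and the mitotic kinesin CENPE fell most, by 1.17 on the log2 scale (limma adjusted p = 6.96e-10). The RZZ subunits moved less: the log2 fold change was 0.0083 for KNTC1 (limma adjusted p = 0.947), -0.36 for ZW10 and -0.86 for ZWILCH. All 3 upstream kinases were lower, with AURKB, the kinase that destabilises faulty attachments, at -1.74 (limma adjusted p = 5.57e-11). CDC20, the protein that the checkpoint complex captures, had 682 ± 33.9 normalized counts in p21 OFF and 232 ± 4.59 in p21 ON (SD, n = 3 each), which is -1.55 on the log2 scale (limma adjusted p = 8.38e-11), and all 4 genes of the checkpoint target and its substrates were lower. Among regulators and partners only 2 of 6 were lower, ZNF207 and NEK2, and NEK2, a centrosomal kinase, had the larger fall, at -1.37 on the log2 scale (limma adjusted p = 1.19e-09). The median log2 fold change was -0.13 in that group and -0.84, -0.97, -1.44 and -1.33 in the 4 groups before it, in the order platform, corona, kinases and target.

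**Figure D4:**
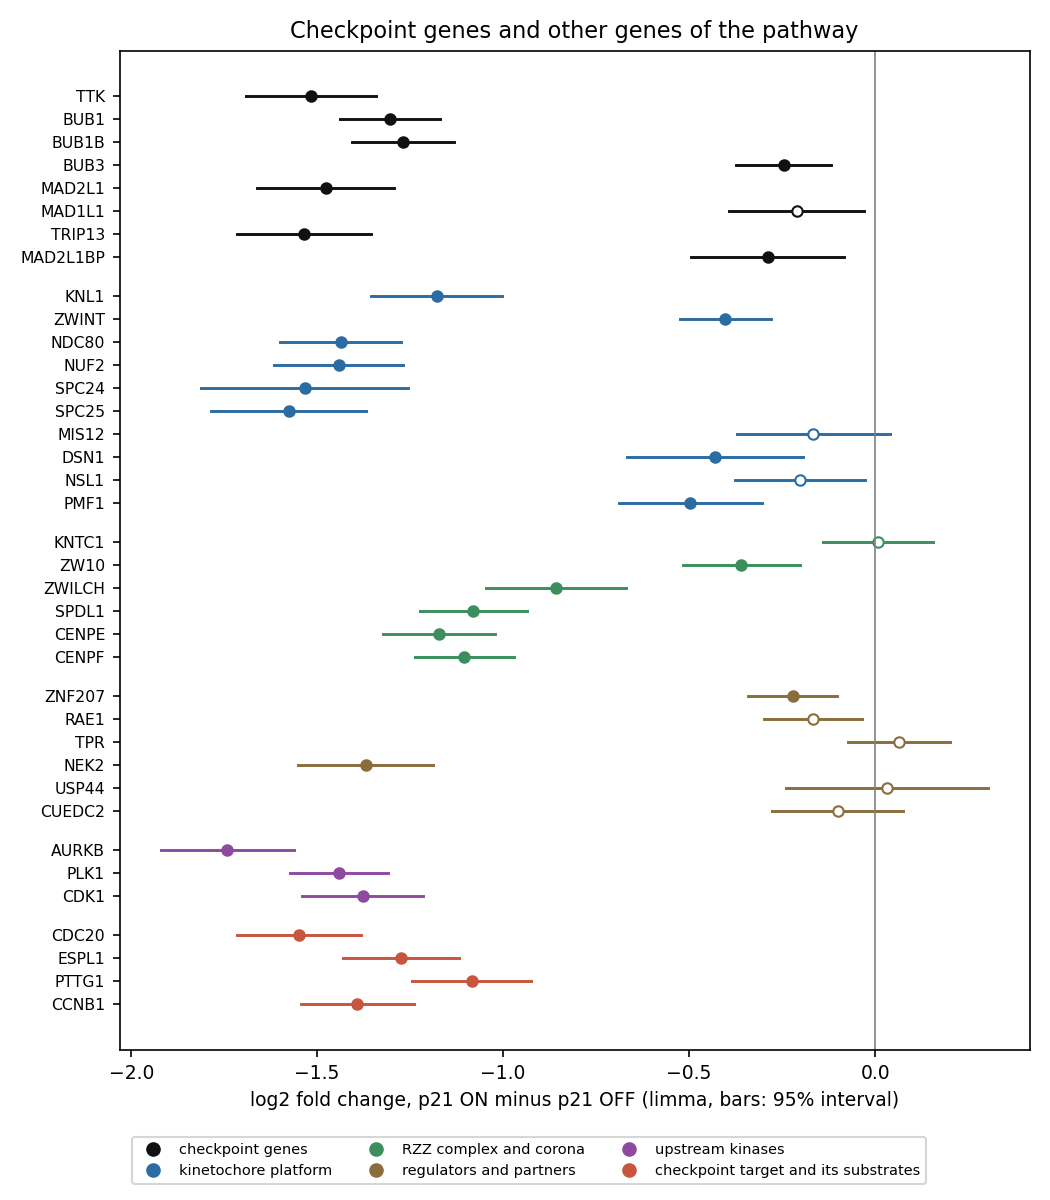
Log2 fold change (p21 ON minus p21 OFF) of the 8 checkpoint genes (black) and of the 29 other genes of the pathway by group (colours), with 95% intervals from limma; filled points have an adjusted p under 0.05 and open points do not. The checkpoint genes fall into 5 points between -1.54 and -1.27 and 3 points between -0.29 and -0.21.

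The genes whose profile over the 6 libraries was most like that of BUB1, among 11390 genes with a mean of at least 50 normalized counts, were TOP2A, KIF11, PLK4, CDCA2 and MASTL, with Pearson correlations of 0.9998 for TOP2A and 0.9990 for MASTL. Since the 6 libraries form 2 groups that are far apart for these genes, a high correlation mostly restates the difference between groups. TOP2A, DNA topoisomerase II alpha, had 6489 ± 98.8 normalized counts in p21 OFF and 2571 ± 115 in p21 ON (SD, n = 3 each), and PLK4, the kinase of centriole duplication, had 865 ± 37.9 and 314 ± 3.89 (SD, n = 3 each). On the same measure BUB1B was at 0.996, TTK at 0.994, TRIP13 and MAD2L1 at 0.991, BUB3 at 0.951, MAD2L1BP at 0.859 and MAD1L1 at 0.693.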

How the data were processed

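RNA was sequenced from 3 p21 OFF and 3 p21 ON libraries of SaOS-2 cells. The authors made stranded mRNA libraries, sequenced single-end reads in one lane, and by the paper's methods and the submitters' processing notes mapped them to hg19 with STAR, counted them with HTSeq and divided them by DESeq2 size factors. The deposited values are therefore a signal of normalized counts; tool versions and the strand setting are not given in the sources used here. In every library 100% of values were whole multiples of one step (tolerance 0.01 of a read), so reads were recovered (size factors 0.796 to 1.35).

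Genes with a mean of at least 10 were tested with limma 3.58.1 (trend, R 4.3.3) on log2(normalized count + 1) across all genes, without covariates. Alternatives were edgeR 4.0.16 and DESeq2 1.42.0 on recovered reads, other scalings, pseudocounts, filters and thresholds, a replicate block and each library left out. limma was tested on simulated data. The members, gene lists and tests were chosen with earlier results of these data known. Genes named were the 8 members, CDKN1A, CDC20, the largest called change in each pathway group, called genes against their group's direction (there were none) and the 5 genes most like BUB1. ZNF207, KNTC1, ZW10, ZWILCH and the genes named for their order or list were named after their values were seen. Positions are from GENCODE release 44 on GRCh37, the build of hg19; start regions are from RefSeq on GRCh38.p14. Read counts set the precision, and counting error is only part of the spread between libraries.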

Additional observations from a re-analysis of the deposited data

How the results depend on the processing

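The 5 large falls (TTK, BUB1, BUB1B, MAD2L1 and TRIP13) were called under all 17 alternatives run, with log2 fold changes of -1.61 to -1.23. The number of checkpoint genes called lower was 7 in the analysis reported and 5 to 7 under the alternatives. Without p21 ON replicate 3 it was again 7, but MAD1L1 was gained (limma adjusted p = 0.0287) and MAD2L1BP lost (limma adjusted p = 0.125). The calls lost were those of BUB3 and MAD2L1BP. A required log2 fold change of at least 1 removed both by definition (-0.25 and -0.29). An adjusted p under 0.01 likewise removed MAD2L1BP (limma adjusted p = 0.0402). The cause of the other losses was not tested. The number called higher was 0 throughout. Other genes of the pathway called lower numbered 22 in the analysis reported and 16 to 23 under the alternatives, and the 4 ratios kept their direction under every alternative run for them.

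Over all genes 1681 were called lower and 1393 higher. Without a filter on low values the numbers were 503 and 254, with an adjusted p under 0.01 they were 882 and 616, and with a log2 fold change of at least 1 they were 152 and 48. With 1 library left out they ranged from 888 to 1662 lower and from 692 to 1488 higher, the lowest being without p21 ON replicate 1; without p21 ON replicate 3 they were 1076 and 739. Scaling by library size alone moved the share of calls that were higher from 45.3% to 63.0%. Equal replicate numbers did not deviate together (correlations -0.0571, -0.0245 and -0.048). These correlations cannot show whether libraries with the same number shared a culture or a day. With the replicate number as a block, 7 checkpoint genes were lower and 0 higher, as without it, 22 other pathway genes were lower and 0 higher, and 1513 genes were lower and 1407 higher over all. MAD2L1BP had 191 to 381 reads per library and TRIP13 182 to 881, which limits how small a change can be seen.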
